A study of Homo sapiens with 4 samples.

Results

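The genes described here encode the protein parts of the mitochondrial ribosome and were taken as the 76 of 57905 gene identifiers whose symbol is MRPL or MRPS followed by a number, with an optional letter A, B or C and no pseudogene suffix. MRPS21 and MRPL45, 2 further genes of this family, were not analysed here. Polyadenylated RNA was sequenced from cells labelled MG63, which is the name of a human osteosarcoma line, 48 hours after transfection with an siRNA against KLF11 or with a control siRNA. Each group held 2 libraries, and the labels give no other treatment, no siRNA sequence and no statement that replicates were separate cultures, so the p-values reflect the spread among these 4 libraries, which may be technical.

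Mitochondria carry their own ribosome, which translates the few membrane proteins of the respiratory chain and ATP synthase that mitochondrial DNA encodes. Its large subunit forms peptide bonds and its small subunit decodes the messenger RNA. All of its proteins are encoded in the nucleus, made in the cytosol and imported, while its ribosomal RNAs come from mitochondrial DNA. Some of the proteins have bacterial counterparts and others were added after the bacterial ancestor was taken up. Despite their names, MRPS18A and MRPS30 sit in the large subunit, and MRPS36 is now known as a part of the oxoglutarate dehydrogenase complex rather than of the ribosome. Counted that way, 50 of the genes belonged to the large subunit, 25 to the small subunit and 1, MRPS36, to neither.

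KLF11, a Krüppel-like zinc finger factor that binds GC-rich promoter elements, was the target of the siRNA. It stood at 5.49 and 6.74 FPKM (fragments per kilobase of gene, scaled to library size) in KLF11 siRNA libraries, against 12.3 and 12.4 FPKM in control siRNA libraries (log2 change -0.92, SE 0.139, limma adjusted p = 0.00951). The label MG63 is in doubt, since RUNX2 and SP7, which define osteoblasts, stayed under 1 FPKM while POU5F1 and CER1 were abundant in all libraries. Other osteoblast markers, named below, were expressed. POU5F1, a factor that defines pluripotent cells, was at 1364 and 1068 FPKM with KLF11 siRNA and at 186 and 177 FPKM with control siRNA, and CER1, an endoderm marker, at 958 and 2574 FPKM with KLF11 siRNA and at 4430.0 and 4406 FPKM with control siRNA. Several marker sums differed between the groups. The summed level of 5 endoderm markers was 1012 to 2705 FPKM in KLF11 siRNA libraries and 4776 to 4809 FPKM in control siRNA libraries. Of these 5 markers 4 were lower, and CER1 did not pass (limma adjusted p = 0.0543). Of 4 epithelial markers all were lower, with sums of 119 to 207 FPKM with KLF11 siRNA against 688 to 714 FPKM with control siRNA. Sums over 6 pluripotency markers were 1987 to 2378 FPKM with KLF11 siRNA against 1050.0 to 1065 FPKM with control siRNA. The 3 higher were POU5F1, NANOG and DPPA4, and POU5F1 gave most of the difference in the sum. The 1 lower was SALL4, at 50.5 and 53.2 FPKM with KLF11 siRNA against 112 and 96.1 FPKM with control siRNA (limma adjusted p = 0.00492). LIN28B and TDGF1 were not called. Of 9 osteoblast markers 6 reached 1 FPKM, with 2 higher and 1 lower and sums of 1807 to 1814 FPKM with KLF11 siRNA against 1008 to 1061 FPKM with control siRNA. These 6 were SPARC, VIM, COL1A2, ALPL, COL1A1 and CDH11, with means over all libraries of 696, 471, 128, 93.6, 18.3 and 15.2 FPKM. VIM and CDH11 were higher, COL1A1 was lower, and SPARC, COL1A2 and ALPL were not called. VIM gave most of the difference in the sum, at 808 and 800 FPKM with KLF11 siRNA against 144 and 131 FPKM with control siRNA. RUNX2, a transcription factor of osteoblasts, was at 0.60 and 0.65 FPKM with KLF11 siRNA and at 0.03 and 0.02 FPKM with control siRNA, and SP7, another, was at or near 0 in every library. None of 4 leukocyte markers reached 1 FPKM, their sums being 0.26 to 0.49 FPKM with KLF11 siRNA against 0.16 to 0.47 FPKM with control siRNA. Of 3 endothelial markers 1 was higher and 1 lower, with sums of 8.51 to 9.12 FPKM with KLF11 siRNA against 11.4 to 13.1 FPKM with control siRNA. The part of these markers in the results on ribosomal proteins was not tested, and fewer cells of a type cannot be told apart from less RNA per cell in such bulk samples.

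Every one of the 76 genes was expressed and passed the filter of a mean of 1 FPKM, most by a wide margin. Their mean levels over the 4 libraries ran from 11.4 to 162 FPKM with a median of 32.3 FPKM. The highest were MRPL51, MRPS6, MRPL3 and MRPL52, and the lowest were MRPL57, MRPS17, MRPL50 and MRPL30. With KLF11 siRNA MRPL51, a large-subunit protein without a bacterial counterpart, was the most abundant at 197 and 175 FPKM, against 136 and 140 FPKM with control siRNA. In control siRNA libraries MRPS6 lay above it.

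Most of these genes were not called, and those that were went both ways. Of the 76 genes, 9 were higher with KLF11 siRNA (11.8%, against 13.5% of all 15320 tested genes) and 7 were lower (9.21%, against 21.7% of all tested genes). Together 16 genes were called (21.1%, against 35.2% of all tested genes). The share called higher lies near that of all genes, and the share called lower is below it. Only MRPS6 moved by at least 1 log2 unit and passed, which is 1.32% of the genes against 12.9% of all tested genes. The median log2 change was 0.005, against -0.11 over all tested genes, and the quartiles were -0.13 and 0.23, against -0.48 and 0.23 over all tested genes. Among the 6821 tested genes with mean levels in the same range, the quartiles were -0.40 and 0.22 and 40.2% were called in either direction. For 54 of the 76 genes both KLF11 siRNA libraries lay on one side of both controls (71.1%, against 73.4% of all tested genes), above them in 29 and below them in 25. Of all tested genes 28.9% lay above and 44.5% below.

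**Figure D1:**
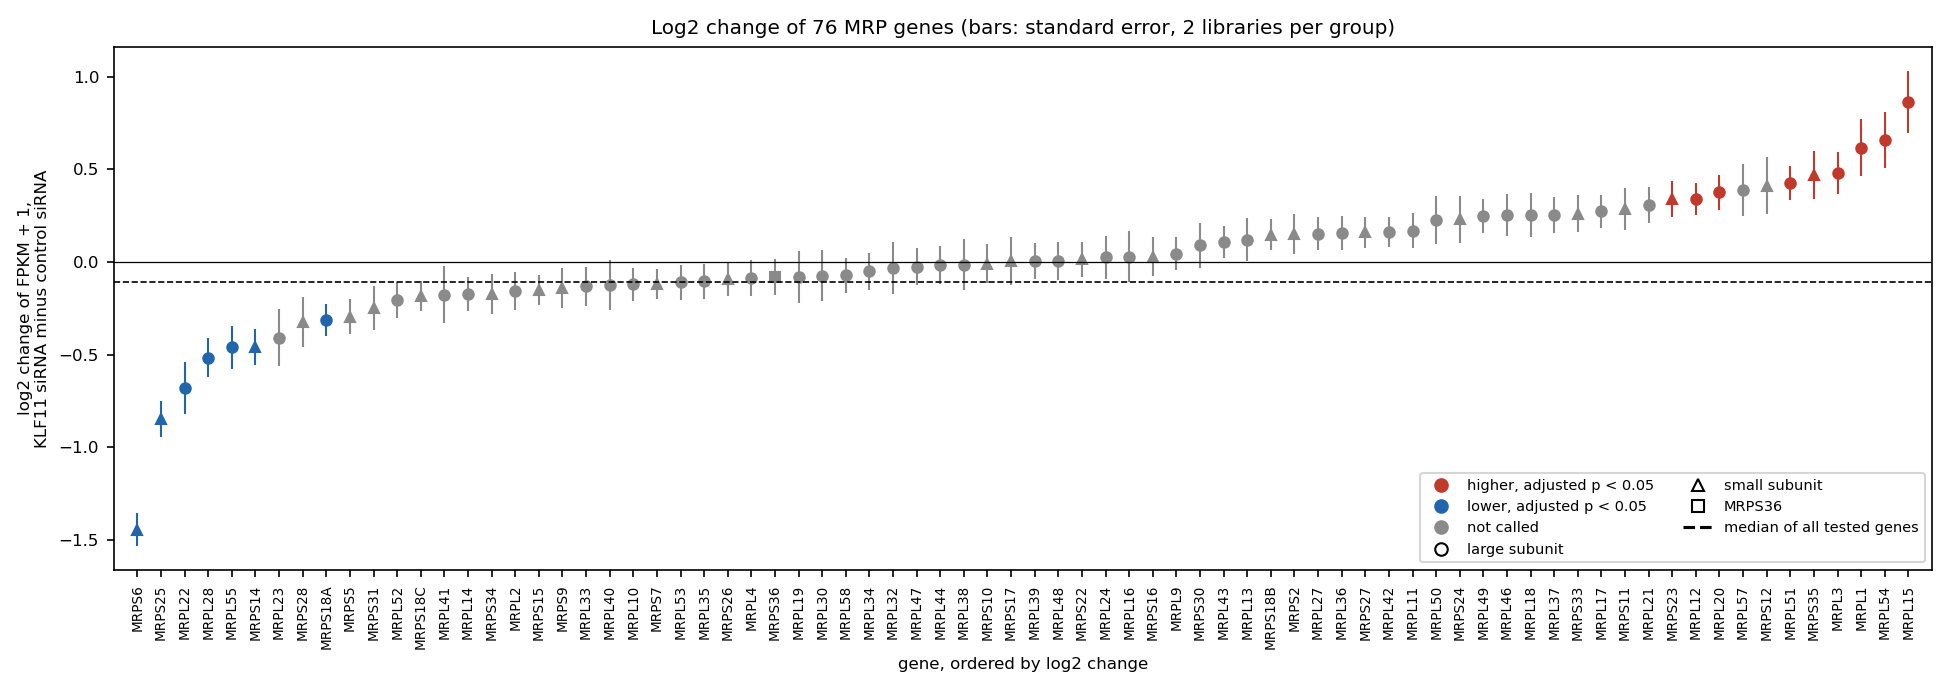
Fitted log2 change of FPKM + 1, KLF11 siRNA minus control siRNA, for each of the 76 genes in order, with bars of 1 standard error from limma on 2 libraries per group, circles for the large subunit, triangles for the small subunit and a square for MRPS36. The 7 genes called lower (blue) run from -1.45 for MRPS6 to -0.31 for MRPS18A, the 9 called higher (red) from 0.34 for MRPS23 to 0.86 for MRPL15, and most others lie near 0.

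The split between higher and lower calls depended on how libraries were scaled. Median-of-ratios scaling, which moved the median of all tested genes to -0.01, gave 16 higher and 5 lower, and quantile normalization 15 higher and 5 lower. With FPKM rescaled to an equal sum per library (TPM) 5 were higher and 8 lower. Calls over all 15320 tested genes moved as well, from 2071 higher and 3329 lower as reported. They were 2728 and 2664 with median-of-ratios scaling, 2657 and 2664 with quantile normalization and 1819 and 3699 with TPM scaling. Relative to the median of all tested genes, that of these 76 genes lay 0.11 log2 units higher as reported, 0.12 with median-of-ratios scaling, 0.08 with quantile normalization and 0.03 with no filter. It lay 0.06 higher without KLF11 siRNA replicate 1 and 0.18 higher without replicate 2. All 16 called genes kept the sign of their change in every one of the 16 other settings, which says little on stability. Since their groups did not overlap, only rescaling of the libraries could have turned a sign. With 1 library left out, the lone library of that group is assumed to vary like the 2 of the other group, which alone give the spread. Without control siRNA replicate 1 or replicate 2, limma called 0 of the genes (10 and 12 at an unadjusted p under 0.05), and few of all tested genes either, 15 higher and 4 lower without replicate 1 and 9 higher and 2 lower without replicate 2, so these fits say nothing on the stability of single calls. Without KLF11 siRNA replicate 1 the median log2 change of the 76 genes was -0.05, and without replicate 2 it was 0.06.

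**Figure D2:**
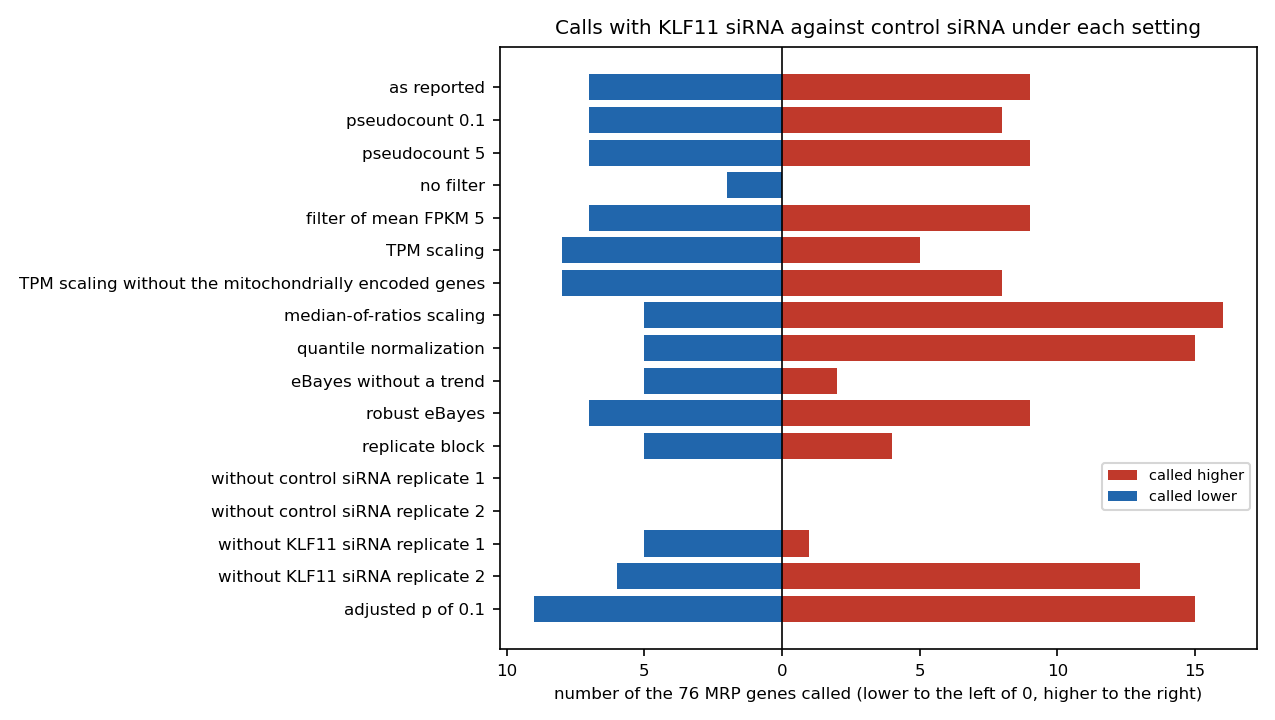
Number of the 76 genes called lower (blue, left of 0) and higher (red, right of 0) with KLF11 siRNA by limma, 1 row per setting. The calls as reported were 7 lower and 9 higher; centring the gene ratios gave more higher calls, 16 or 15, and leaving out either control siRNA library, which takes the spread from the KLF11 siRNA libraries alone, left none.

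Promoters are shown for the 3 largest falls and the 3 largest rises for which RefSeq gives a single start, because KLF11 belongs to a family that binds GC boxes and because genes of mitochondrial ribosomal proteins are known for sites of ETS factors. Each line gives the 250 bases before the start in GRCh38.p14, 5′ to 3′ on the gene's strand. Capitals mark the GC box GGGCGG and the ETS core CCGGAA on either strand, the NRF1 palindrome and the YY1 core ATGGCGGC, also on either strand. No match to the NRF1 palindrome or the YY1 core occurs in these lines. The positions are MRPS6 chr21:34073328-34073577, plus strand; MRPS25 chr3:15065316-15065565, minus strand; MRPL22 chr5:154940823-154941072, plus strand; MRPL54 chr19:3762432-3762681, plus strand; MRPL1 chr4:77862580-77862829, plus strand and MRPL3 chr3:131502972-131503221, minus strand.
MRPS6: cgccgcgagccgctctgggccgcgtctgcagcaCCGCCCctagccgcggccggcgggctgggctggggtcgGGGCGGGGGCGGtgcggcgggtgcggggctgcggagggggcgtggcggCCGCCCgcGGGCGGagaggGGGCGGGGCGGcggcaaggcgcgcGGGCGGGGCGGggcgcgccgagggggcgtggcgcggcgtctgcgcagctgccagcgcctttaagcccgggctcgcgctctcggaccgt
MRPS25: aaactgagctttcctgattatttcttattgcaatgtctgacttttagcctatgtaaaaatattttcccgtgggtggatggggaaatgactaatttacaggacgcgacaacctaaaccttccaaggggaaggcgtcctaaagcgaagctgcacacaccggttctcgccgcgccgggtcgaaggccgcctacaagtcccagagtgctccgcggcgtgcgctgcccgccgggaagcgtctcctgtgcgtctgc
MRPL22: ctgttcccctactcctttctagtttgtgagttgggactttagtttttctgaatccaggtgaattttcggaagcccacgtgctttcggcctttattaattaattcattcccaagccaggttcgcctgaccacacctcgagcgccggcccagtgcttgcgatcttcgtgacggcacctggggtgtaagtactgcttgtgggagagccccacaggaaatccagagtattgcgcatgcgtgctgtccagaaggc
MRPL54: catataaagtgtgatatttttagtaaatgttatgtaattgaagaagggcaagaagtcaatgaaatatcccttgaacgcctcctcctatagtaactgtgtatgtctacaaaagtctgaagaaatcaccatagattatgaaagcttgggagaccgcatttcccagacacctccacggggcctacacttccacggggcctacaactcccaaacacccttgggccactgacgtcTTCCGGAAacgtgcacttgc
MRPL1: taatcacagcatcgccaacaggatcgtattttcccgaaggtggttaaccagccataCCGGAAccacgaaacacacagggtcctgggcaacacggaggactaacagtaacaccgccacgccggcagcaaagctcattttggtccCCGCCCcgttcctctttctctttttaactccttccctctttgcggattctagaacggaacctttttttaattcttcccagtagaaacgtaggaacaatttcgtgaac
MRPL3: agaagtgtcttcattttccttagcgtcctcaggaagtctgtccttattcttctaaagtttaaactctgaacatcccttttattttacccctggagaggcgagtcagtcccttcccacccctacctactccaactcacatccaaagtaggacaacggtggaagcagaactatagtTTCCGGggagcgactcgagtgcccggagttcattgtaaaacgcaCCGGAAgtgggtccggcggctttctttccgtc

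The promoter of MRPS6, the gene with the strongest fall, held 9 matches to the GC box and was 84.8% G or C, while those of MRPS25 and MRPL22 held no match to any of the motifs. Those of MRPL54, MRPL1 and MRPL3 each held the ETS core, in MRPL54 as TTCCGGAA, which counts on both strands, and MRPL1 held 1 GC box. Of 67 genes found in the promoter table, 56 had a single start. Among these, the GC box occurred in 51.8%, against 40.9% of 22114 promoters of the same length in the table, and the ETS core in 28 of 56 against 14.8%. The NRF1 palindrome occurred in 8.93% against 5.52%, and the YY1 core in 3.57% against 1.27%. By call, the ETS core was in 6 of 8 promoters of genes that rose, 1 of 7 of genes that fell and 21 of 41 of genes not called, and the GC box in 3, 5 and 21 of the same promoters. The median share of G and C was 57.0% in genes that rose, 59.6% in genes that fell and 57.2% over all promoters. These counts describe letters in a window and were not tested.

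The strongest fall was that of MRPS6, a small-subunit protein with a bacterial counterpart that lies at the edge of the subunit's platform. It measured 50.2 and 55.5 FPKM in KLF11 siRNA libraries, against 145.6 and 145.5 FPKM in control siRNA libraries, with means of 52.8 ± 3.72 FPKM with KLF11 siRNA and 145.5 ± 0.0778 FPKM with control siRNA (SD, n = 2 each). Both KLF11 siRNA libraries lay far below the controls, 2.75-fold lower in the mean (log2 change -1.45, SE 0.0878, limma adjusted p = 0.00235). The call held in all 12 settings that kept every library, with adjusted p from 0.00121 to 0.0271 in limma. In the GENCODE annotation MRPS6 overlaps SLC5A3, a myo-inositol transporter gene, on the same strand. SLC5A3 was at 3.38 and 4.67 FPKM with KLF11 siRNA and at 10.9 and 10.6 FPKM with control siRNA (log2 change -1.24, limma adjusted p = 0.00767). Reads of overlapping genes may not be separable, so how much each gene moved on its own is uncertain.

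MRPS25, a small-subunit protein without a bacterial counterpart, had 19.95 and 21.9 FPKM in KLF11 siRNA libraries, against 39.6 and 37.2 FPKM in control siRNA libraries. The groups were clearly apart, and the mean was 1.84-fold lower with KLF11 siRNA (20.9 ± 1.37 FPKM with KLF11 siRNA and 38.4 ± 1.73 FPKM with control siRNA, SD, n = 2 each). The log2 change was -0.85 (SE 0.0987, limma adjusted p = 0.00559), and this call too held in all 12 settings with every library, with adjusted p from 0.00376 to 0.0359 in limma. NR2C2, which overlaps it on the other strand, did not pass, with 6.18 and 6.90 FPKM with KLF11 siRNA against 8.94 and 8.01 FPKM with control siRNA (limma adjusted p = 0.113).

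MRPL22, a large-subunit protein that lines the tunnel through which the new chain leaves, was at 39.5 and 51.6 FPKM with KLF11 siRNA and at 72.1 and 73.8 FPKM with control siRNA. Its KLF11 siRNA libraries differed more from each other than the controls did, and both lay below them (log2 change -0.68, SE 0.141, limma adjusted p = 0.0202). Leaving out KLF11 siRNA replicate 1 gave a log2 change of -0.49 and leaving out replicate 2 one of -0.87. The other large-subunit proteins called lower were MRPL28, MRPL55 and MRPS18A, all of which were counted here among those with bacterial counterparts. MRPL28 measured 58.1 and 63.8 FPKM with KLF11 siRNA against 93.6 and 82.0 FPKM with control siRNA (log2 change -0.52, limma adjusted p = 0.0192), and TMEM8A, which overlaps it on the same strand, was lower as well (log2 change -0.35, limma adjusted p = 0.0471). MRPL55 had 22.1 and 22.4 FPKM with KLF11 siRNA against 33.9 and 28.3 FPKM with control siRNA (log2 change -0.46, limma adjusted p = 0.0343). Its groups did not overlap, but the control libraries were spread more widely than the KLF11 siRNA libraries. MRPS14, the remaining small-subunit protein called lower, had 15.6 and 16.3 FPKM with KLF11 siRNA against 22.3 and 22.4 FPKM with control siRNA (log2 change -0.46, limma adjusted p = 0.0202). CACYBP overlaps MRPS14 on the other strand and did not pass (limma adjusted p = 0.0897). It had 97.3 and 79.35 FPKM with KLF11 siRNA against 109 and 111 FPKM with control siRNA.

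The MRPS18 paralogs, 3 related proteins of which MRPS18B was counted here among those without a bacterial counterpart, differed in their calls, in that 1 of 3 passed. MRPS18A, the copy placed in the large subunit, was at 29.1 and 28.5 FPKM with KLF11 siRNA and at 36.1 and 36.0 FPKM with control siRNA (log2 change -0.31, SE 0.0848, limma adjusted p = 0.0401). The libraries of each group nearly coincided and the groups were apart, yet median-of-ratios scaling and quantile normalization, among other settings, ended the call (limma adjusted p from 0.0285 to 0.137 over settings with every library, the highest with median-of-ratios scaling). MRPS18B, with 33.8 and 33.8 FPKM with KLF11 siRNA against 29.9 and 31.0 FPKM with control siRNA, did not pass (limma adjusted p = 0.232), nor did MRPS18C, with 49.1 and 50.1 FPKM with KLF11 siRNA against 55.0 and 58.0 FPKM with control siRNA (limma adjusted p = 0.141). The difference between the paralogs was not tested.

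Of the 9 genes that rose, 7 belong to the large subunit, as do 50 of all 76 genes. The largest rise was that of MRPL15, a large-subunit protein with a bacterial counterpart. MRPL15 measured 71.3 and 51.0 FPKM in KLF11 siRNA libraries, against 32.9 and 32.5 FPKM in control siRNA libraries (61.2 ± 14.4 FPKM with KLF11 siRNA and 32.7 ± 0.318 FPKM with control siRNA, SD, n = 2 each). Both KLF11 siRNA libraries lay above the controls, with the widest gap between them of all 76 genes, 0.48 log2 units (log2 change 0.86, SE 0.168, limma adjusted p = 0.0172). Leaving out KLF11 siRNA replicate 1 gave a log2 change of 0.63 and leaving out replicate 2 one of 1.10.

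MRPL54, which has no bacterial counterpart, was at 34.8 and 31.7 FPKM with KLF11 siRNA and at 23.8 and 18.0 FPKM with control siRNA (log2 change 0.66, SE 0.153, limma adjusted p = 0.0271). MRPL1, part of the mobile stalk beside the site where spent transfer RNAs leave, was at 35.7 and 29.5 FPKM with KLF11 siRNA against 18.5 and 23.3 FPKM with control siRNA (log2 change 0.62, SE 0.155, limma adjusted p = 0.0332). In both genes the control libraries also differed from each other, but no control reached a KLF11 siRNA library. MRPL3, which reaches toward the centre where peptide bonds form, had 116 and 98.6 FPKM with KLF11 siRNA against 72.7 and 80.5 FPKM with control siRNA (log2 change 0.48, SE 0.115, limma adjusted p = 0.0290). MRPL51, given above, rose by 0.43 log2 units (SE 0.0927, limma adjusted p = 0.0226) and MRPL20 by 0.38, with libraries at 85.8 and 75.5 FPKM with KLF11 siRNA against 61.8 and 61.8 FPKM with control siRNA (limma adjusted p = 0.0343).

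MRPL12 forms the flexible stalk that recruits translation factors, and a role of the free protein in mitochondrial transcription has been described. It had 66.3 and 65.7 FPKM with KLF11 siRNA, against 54.4 and 49.6 FPKM with control siRNA (log2 change 0.34, SE 0.0884, limma adjusted p = 0.0365). The KLF11 siRNA libraries nearly coincided, and TPM scaling, among other settings, ended the call (limma adjusted p from 0.0147 to 0.0817 over settings with every library). The small-subunit proteins that rose were MRPS35 and MRPS23, neither with a bacterial counterpart. MRPS35 was at 34.1 and 27.5 FPKM with KLF11 siRNA against 21.8 and 21.8 FPKM with control siRNA (log2 change 0.47, SE 0.128, limma adjusted p = 0.0412), and MRPS23 at 50.9 and 45.1 FPKM with KLF11 siRNA against 38.1 and 37.2 FPKM with control siRNA (log2 change 0.34, SE 0.0972, limma adjusted p = 0.0468). MRPS23 was the least stable of the called genes, in that its call held in 6 of the 12 settings with every library.

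**Figure D3:**
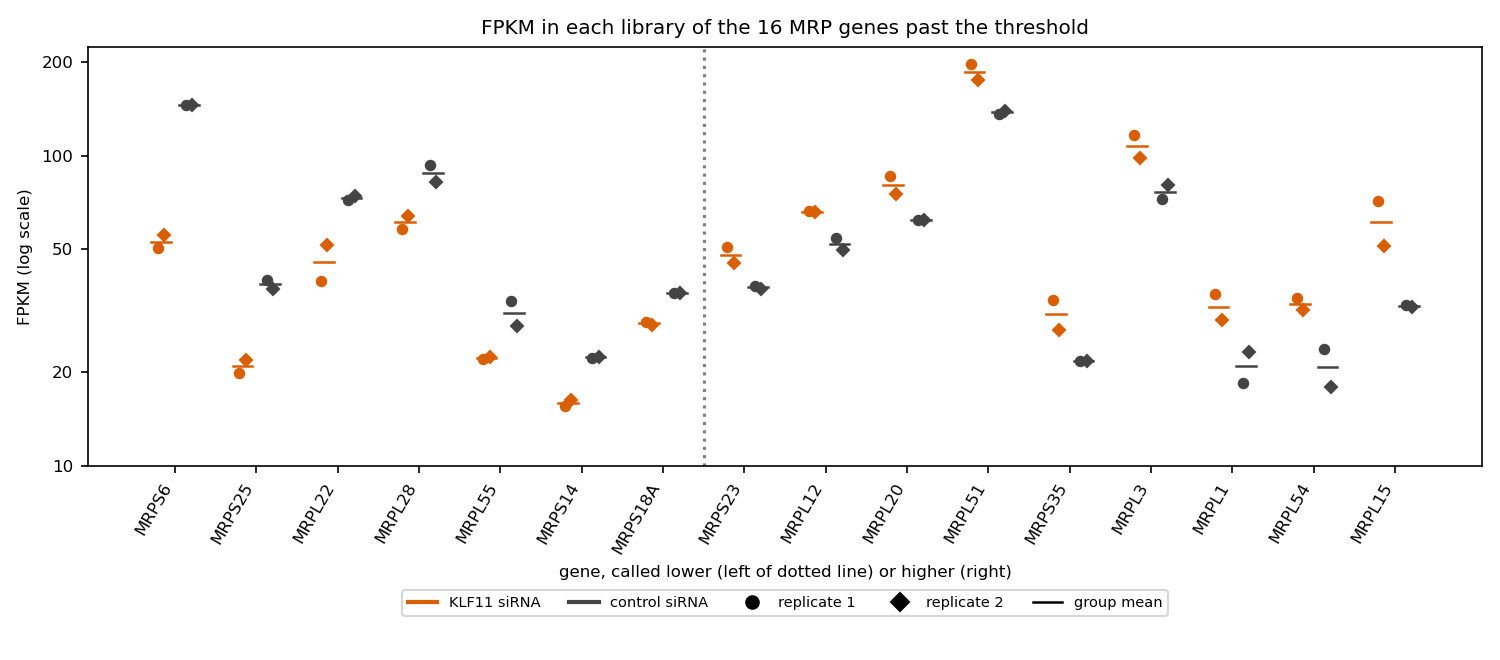
FPKM on a log scale in each library for the 16 genes past the threshold, KLF11 siRNA in orange left of control siRNA in grey, with circles for replicate 1, diamonds for replicate 2 and lines for group means. No control library overlaps a KLF11 siRNA library in any of the 16, and KLF11 siRNA replicate 1 lies farther from the controls than replicate 2 in 15 of them, MRPS18A being the exception.

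Among the genes that rose, KLF11 siRNA replicate 1 was higher than replicate 2 in 9 of 9, and among those that fell it was the lower library in 6 of 7. Over all tested genes the same was seen for 79.1% of those called higher and 79.0% of those called lower. KLF11 itself was at 5.49 FPKM in replicate 1 and at 6.74 FPKM in replicate 2. Genes with wide gaps between the KLF11 siRNA libraries besides MRPL15 and MRPL22 were MRPL23 and MRPL32. MRPL23, which lies at the tunnel exit, had 35.0 and 46.4 FPKM with KLF11 siRNA against 57.0 and 50.9 FPKM with control siRNA and did not pass (limma adjusted p = 0.0927). MRPL32 had 67.5 and 52.0 FPKM with KLF11 siRNA, on either side of 62.1 and 59.4 FPKM with control siRNA (limma adjusted p = 0.866).

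Summed over the 76 genes, the level was 3053 and 2885 FPKM in KLF11 siRNA libraries and 2998 and 2937 FPKM in control siRNA libraries, so the controls lay between the KLF11 siRNA libraries. The large subunit summed to 2114 and 1990 FPKM with KLF11 siRNA and to 1960 and 1921 FPKM with control siRNA. Without MRPL51 the sums were 1917 and 1814 FPKM with KLF11 siRNA and 1824 and 1781 FPKM with control siRNA, ranges that overlap. Of its 50 genes 7 were higher and 4 lower, with a median log2 change of 0.02. The small subunit summed to 903 and 860.5 FPKM with KLF11 siRNA against 1003 and 977 FPKM with control siRNA, and 2 of its 25 genes were higher and 3 lower, with a median of -0.01. Without MRPS6 the small subunit summed to 853 and 805 FPKM with KLF11 siRNA and to 858 and 832 FPKM with control siRNA, ranges that overlap. Among the 46 ribosomal proteins counted as having bacterial counterparts, MRPS18A included, 5 were higher and 6 lower (median -0.03). Among the 29 counted as having none, MRPS18B included, 4 were higher and 1 lower (median 0.09). These counts rest on that classing. No test between these classes was made, and for a sum over 2 libraries a side the smallest two-sided p of an exact permutation test is 0.333.

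Of the 76 genes, 60 were not called. MRPS30, of the large subunit, had 25.1 and 23.7 FPKM with KLF11 siRNA and 20.9 and 24.99 FPKM with control siRNA, with overlapping groups (limma adjusted p = 0.591). MRPS36 had 35.3 and 34.4 FPKM with KLF11 siRNA against 34.9 and 39.2 FPKM with control siRNA, again overlapping (limma adjusted p = 0.541). Of the abundant genes, MRPL52 had 70.1 and 68.6 FPKM with KLF11 siRNA against 85.9 and 74.7 FPKM with control siRNA and did not pass (limma adjusted p = 0.162). Among the scarcest, MRPS17 had 12.8 and 10.6 FPKM with KLF11 siRNA against 11.4 and 11.9 FPKM with control siRNA, and MRPL30 12.7 and 10.8 FPKM with KLF11 siRNA against 13.2 and 11.5 FPKM with control siRNA, both with overlapping groups. MRPL57 and MRPL50 did not overlap, at 13.9 and 12.2 FPKM with KLF11 siRNA against 10.7 and 8.89 FPKM with control siRNA and at 13.7 and 11.7 FPKM with KLF11 siRNA against 10.3 and 11.1 FPKM with control siRNA, but neither passed (limma adjusted p = 0.0844 and 0.221).

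Some of the genes lie beside another gene that starts within 1000 bases in the opposite direction, and GENCODE gives such a protein-coding partner for 29 of them. Of 26 pairs in which both genes were tested, the log2 changes had the same sign in 18. Their Spearman correlation was only 0.22, and whether such pairs move together was not tested. Only 2 pairs held a called ribosomal protein, and their partners went different ways. NCAPD2, a condensin subunit beside MRPL51 whose transcript overlaps it, was higher, at 57.5 and 52.9 FPKM with KLF11 siRNA against 44.8 and 40.3 FPKM with control siRNA (limma adjusted p = 0.0398). APBA3, beside MRPL54, was lower, at 5.24 and 6.33 FPKM with KLF11 siRNA against 10.6 and 8.12 FPKM with control siRNA (limma adjusted p = 0.0491), while MRPL54 rose. Among pseudogene rows, 2 were lower with KLF11 siRNA, MRPS36P1 at 0.27 and 0 FPKM with KLF11 siRNA against 6.5 and 3.84 FPKM with control siRNA (limma adjusted p = 0.0057) and MRPS31P5 at 3.55 and 3.47 FPKM with KLF11 siRNA against 7.14 and 7.46 FPKM with control siRNA (limma adjusted p = 0.00977). MRPS36 and MRPS31, whose reads they could share, did not pass.

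The other genes of mitochondrial translation and mitochondrial DNA are to be read against the 13.5% of all tested genes called higher and the 21.7% called lower. None of the 6 tested proteins of the ribosome or its membrane contact under other names, among them DAP3 and PTCD3, was called by limma, and 0 had an unadjusted p under 0.05. Of 23 tested factors of assembly and ribosomal RNA modification 2 rose and 1 fell, with a median log2 change of 0.09. MTG1, a GTPase of late large-subunit assembly, was at 39.8 and 39.2 FPKM with KLF11 siRNA against 22.9 and 23.3 FPKM with control siRNA (log2 change 0.75, limma adjusted p = 0.00541), FASTKD2 rose by 0.40 log2 units (limma adjusted p = 0.0425), and METTL15, which methylates the small-subunit RNA, fell by 0.56 on the log2 scale (limma adjusted p = 0.0315). Of 16 translation factors 4 rose (25%) and 1 fell, with a median of 0.05. LRPPRC and SLIRP, partners that stabilize mitochondrial messenger RNAs, rose together, LRPPRC to 64.7 and 60.8 FPKM with KLF11 siRNA against 38.3 and 41.2 FPKM with control siRNA (limma adjusted p = 0.0079) and SLIRP to 179 and 156 FPKM with KLF11 siRNA against 118 and 117 FPKM with control siRNA (limma adjusted p = 0.0167). The elongation factor GFM1 rose by 0.53 log2 units (limma adjusted p = 0.0221) and GFM2, which acts in ribosome recycling, fell by 0.60 on the log2 scale (limma adjusted p = 0.0251). PDF, the peptide deformylase, was the remaining gene that rose.

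Of 9 genes for mitochondrial DNA and its transcription 3 rose and 0 fell by limma, namely TFAM, TFB2M and TWNK, with a median log2 change of 0.20. The share called in either direction, 33.3%, was near the 35.2% of all tested genes. At an unadjusted p under 0.05 the counts were 4 higher and 2 lower. TFAM, which packages mitochondrial DNA and starts its transcription, was at 53.2 and 43.3 FPKM with KLF11 siRNA against 31.6 and 34.0 FPKM with control siRNA (limma adjusted p = 0.0273). POLRMT, the RNA polymerase, had 24.5 and 23.8 FPKM with KLF11 siRNA against 22.0 and 19.9 FPKM with control siRNA (limma adjusted p = 0.178). Of 7 tested regulators of mitochondrial biogenesis MYC and the coactivator PPRC1 rose, MYC to 53.5 and 34.3 FPKM with KLF11 siRNA against 8.74 and 7.90 FPKM with control siRNA (limma adjusted p = 0.00436), and NRF1, GABPA, GABPB1, YY1 and ESRRA did not pass, NRF1 with 8.23 and 8.21 FPKM with KLF11 siRNA against 7.56 and 7.01 FPKM with control siRNA (limma adjusted p = 0.363). The 15 mitochondrially encoded RNAs, which include the messenger RNAs that this ribosome translates, gave no call by limma, 0 of them had an unadjusted p under 0.05, and in none did the groups stand apart. All genes whose symbol starts with MT-, more than these 15, took 7.69% and 12.7% of the summed FPKM in KLF11 siRNA libraries. In control siRNA libraries the shares were 9.0% and 12.3%, so the controls lay between the KLF11 siRNA libraries. In both groups the share was larger in replicate 2. Since polyadenylated RNA was selected, MT-RNR1 and MT-RNR2 are no measure of the amount of ribosome.

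Of 83 tested cytosolic ribosomal protein genes 37 rose (44.6%, against 13.5% of all tested genes) and 2 fell (2.41%, against 21.7%) by limma, with a median log2 change of 0.37, and their summed level was 90110 and 81450 FPKM with KLF11 siRNA against 67370 and 64820 FPKM with control siRNA. RPL7 was at 1734 and 1497 FPKM with KLF11 siRNA against 943 and 1002 FPKM with control siRNA (limma adjusted p = 0.0108), and RPS3 at 2750 and 2635 FPKM with KLF11 siRNA against 1810.0 and 1649 FPKM with control siRNA (limma adjusted p = 0.0131). The count that rose was 67 with median-of-ratios scaling and 12 with quantile normalization. All 15320 tested genes gave 2728 and 2657 higher calls in these settings. With quantile normalization the share that rose was thus no larger than that of all tested genes, so the excess depended on the scaling. Many of these genes have pseudogenes that can share reads. No test of the difference between both kinds of ribosome was made.

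**Figure D4:**
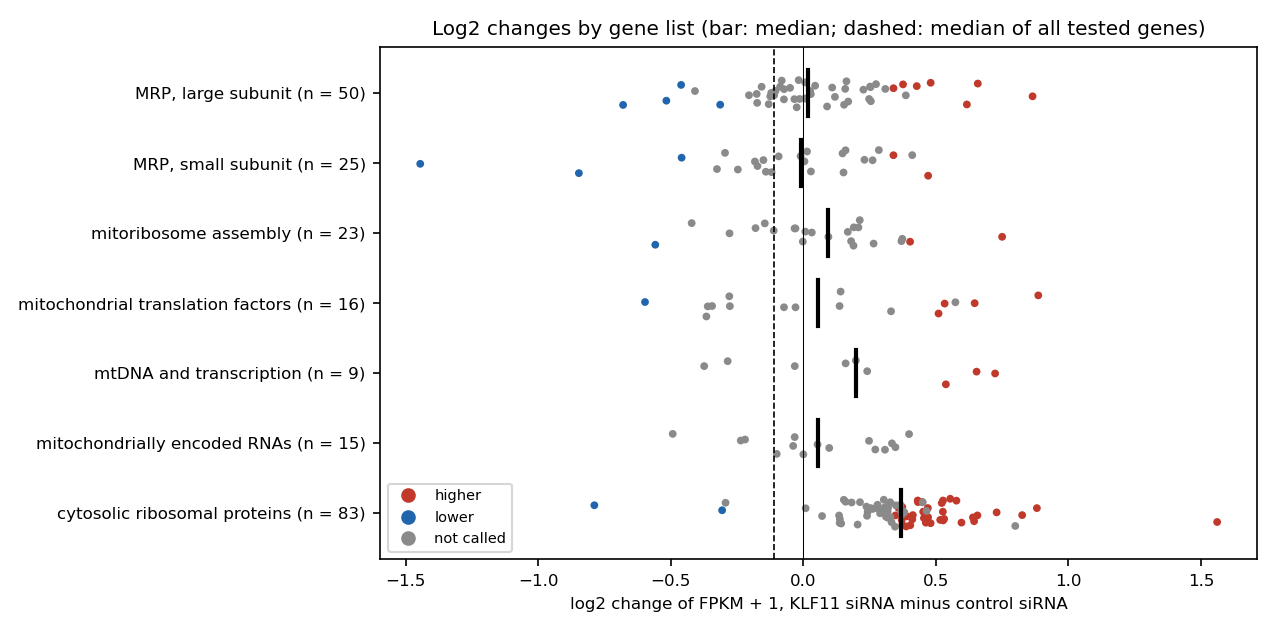
Log2 change of FPKM + 1, KLF11 siRNA minus control siRNA, for each tested gene (points, red called higher, blue called lower, grey not called) by list, with a black bar for the list's median and a dashed line at -0.11, the median of all tested genes. On FPKM without rescaling, both subunits of the mitochondrial ribosome centre near 0, while the cytosolic ribosomal proteins centre at 0.37.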

How the data were processed

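The authors deposited FPKM values with 2 decimals, 1 column per library. The submitters' processing notes name RSEM 1.3.1, Trim Galore 0.5.0 and build hg19 (GRCh37). Aligner, annotation release, strand setting and filters: not given in the sources used here. Depth is unknown. RSEM divides reads among matching transcripts, so genes with pseudogenes or overlapping neighbours are uncertain.

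Columns were matched to samples through their titles, leaving 0 unmatched. The correlation of log2 values across tested genes was 0.976 between KLF11 siRNA libraries, 0.982 between controls and 0.894 to 0.930 between groups, and at most 0.548% of genes were identical in a pair of libraries, so none was counted as a duplicate. Genes with a mean of at least 1 FPKM were tested on log2(FPKM + 1) with limma 3.58.1 in R 4.3.3 (eBayes with a trend, no block), with Benjamini-Hochberg adjustment over 15320 genes and a threshold of 0.05. This scale understates changes of low genes. The script was tested on simulated data. The smallest of the changes put in were missed, and the share of false calls exceeded the threshold. A far smaller share of genes was altered there than was called here, so these rates need not carry over. Still, an uncalled gene is not shown to be unaltered, and calls of small changes may be less certain than their adjusted p. As alternatives the pseudocount was 0.1 or 5, the filter was dropped or set to 5 FPKM, and values were rescaled to TPM (with and without mitochondrially encoded genes), by medians of ratios or by quantiles. Others were robust eBayes, eBayes without the trend, the replicate number as a block, an adjusted p of 0.1, and leaving out each library.

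Members and lists were chosen with earlier results of these data known. Genes named were KLF11, the 12 largest rises and falls past the threshold (all, where fewer), the 4 highest and 4 lowest members, the 4 with the widest gap between KLF11 siRNA libraries, MRPL12, MRPS30, MRPS36 and the MRPS18 paralogs, up to 6 of each related list by p, and any behind a count of 5 or fewer. Overlapping and divergent neighbours, pseudogenes and promoter motifs were looked up after values had been seen. All 76 identifiers matched a current Ensembl name table with the same symbol. Neighbours came from GENCODE 29 and promoters from RefSeq, both on GRCh38, so no coordinates were joined to the files. MRM1 and RCC1L, 2 listed assembly factors, were not analysed here. Figures were drawn with matplotlib 3.10.9.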

Additional observations from a re-analysis of the deposited data

How the results depend on the processing

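As reported, 9 of the 76 genes were higher and 7 lower, with a median log2 change of 0.005. The higher count was 0 with no filter, 5 with TPM scaling, 16 with median-of-ratios scaling, 15 with quantile normalization, 2 in eBayes without a trend, 4 with the replicate number as a block and 15 at an adjusted p of 0.1. In the same order, all tested genes gave 887, 1819, 2728, 2657, 1771, 1707 and 2767 higher calls, against 2071 as reported. The lower count was 2 with no filter, and it stayed between 5 and 9 in the other settings that kept every library. Over all tested genes it was 1251 with no filter and 2558 to 4489 in those other settings, against 3329 as reported. With no filter 34232 genes were tested, most of them scarce, 24 of these 76 genes had an unadjusted p under 0.05 in limma, and the cause was not tested. The median was 0.12 with median-of-ratios scaling and 0.0918 with quantile normalization, which both centre the libraries by construction. With 1 library left out the higher count ran from 0 to 13, the lower count from 0 to 6, the median from -0.05 to 0.06, and the log2 change of KLF11 from -1.04 to -0.79, not past the threshold without either control library (adjusted p = 0.106 or 0.107, limma). With a control left out, the KLF11 siRNA libraries alone give the spread and hardly any of all tested genes passes, so those fits say nothing on stability.

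The 16 called genes kept their sign in all 256 values recomputed, though only rescaling of the libraries could have turned it. Of those 256 values 86 lost the call. Over all 76 genes and every other setting, 1100 single values kept their side of the threshold, most of them of genes not called. Among the rest 30 gained a call, and 0 reversed. Only MRPS6 and MRPS25 kept their calls in all 12 settings with every library. The counts for related lists moved by over 1.5 times in 59 of 224 values. Whether replicate numbers in the titles pair the libraries is not known. Deviations of same-numbered libraries from their group means correlated at -0.0711, and a single correlation cannot exclude a pairing. Mitochondrially encoded RNAs took a larger share of the summed FPKM in replicate 2 of both groups. The block result above says nothing on the size of any effect. With FPKM alone, depth and counting error are unknown.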
